A study of Mus musculus with 10 samples.

Results

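Chemokine ligands and receptors were examined in the transcriptome of meningeal lymphatic endothelial cells (LECs) from female mice under sub-chronic variable stress (SCVS). The members were all rows of the count table whose gene symbol begins with Ccl, Cxcl, Xcl, Cx3cl, Ccr, Cxcr, Xcr, Cx3cr or Ackr followed by a digit, leaving out Ccl21a and symbols ending in ps. The rule gave 63 of 55401 genes, of which 40 carry ligand symbols and 23 receptor symbols. The pseudogenes Ccl19-ps1 and Ccl19-ps3 match it because their symbols end in a digit, and neither had a count.

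The libraries came from C57BL/6 female mice (C57BL/6J in the methods) 3 months of age with no engineered allele. Libraries carry the numbers that the labels give to the replicates of a group. The Naive group (5 libraries) was not stressed, and the SCVS group (5 libraries) received alternating foot shock, tail suspension and restraint over 6 days. Cells were sorted from the dura mater as CD45-CD31+PDPN+, that is, without the leukocyte surface protein CD45 and with the endothelial protein CD31 and the lymphatic protein podoplanin. Each library held the cells of 3 to 4 pooled animals, so differences between animals of a pool cannot be seen. In such bulk samples, fewer cells of a type and less RNA per cell cannot be told apart.

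Chemokines are small secreted or membrane-tethered proteins that guide migrating leukocytes through receptors with transmembrane helices coupled to inhibitory G proteins. They are classed by the spacing of the first cysteines of the mature protein as CC, CXC, XC or CX3C ligands, and receptors are named by the class they bind. Atypical receptors (Ackr genes) bind chemokines without G protein signalling and remove, transport or buffer them. In lymphatic vessels the family is best known for Ccl21a, which draws dendritic cells and T cells with the receptor Ccr7 into the vessel, and for Ackr2 and Ackr4, which LECs use to clear chemokines.

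The cysteine spacing that gives the ligands their class is shown for 7 members on which the results turn. Each line is a window of 30 bases of the coding sequence in GENCODE M1 (mm9), 5′ to 3′, with the codons of the class-defining cysteines in capitals.
Ccl6: tcttcagacTGCTGCttctcttatgccaca
Ccl9: tcttcagatTGCTGCctgtcctataactca
Ccl27a: agcactagcTGCTGTactcagctctataga
Cxcl12: agctaccgaTGCcccTGCcggttcttcgag
Cxcl16: gctggaagtTGTtctTGTgatcgtaccatt
Cxcl10: acggtccgcTGCaacTGCatccatatcgat
Cx3cl1: atgacgaaaTGCgaaatcatgTGCgacaag
Such a window was found for 31 ligands, 18 of them CC and 12 CXC. Ccl6 and Ccl9, rodent CC ligands of Ccr1, were identical at 23 of the 30 bases, and Ccl6 matched the other 16 CC ligands at 9 to 19 bases, with Ccl4 the closest of them. The first cysteine codon of the motif was codon 50 in Ccl6 and codon 57 in Ccl9. It was codon 78 in the Ccl27a transcript and lay between codons 30 and 36 in the other 15 CC ligands. The Ccl6 and Ccl9 coding sequences thus carry a longer stretch before the cysteine motif than the other CC ligands apart from Ccl27a.

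The sequences upstream of the start site are shown for Ccl6 and Ccl9, with reads over the floor of 3 counts in SCVS libraries only, for Cxcl12, with reads in all 10 libraries, and for Cxcl10, an interferon-induced ligand. Each holds 250 bases before the start in RefSeq (GRCm38.p6) on the strand of the gene. Capitals mark matches on either strand, which may overlap, to the letters of a TATA box (TATAAA). They also mark those of a GC box bound by Sp1 (GGGCGG), and those of an interferon response element core (GAAANNGAA).
Ccl6 (GRCm38.p6 chr11:83593088-83593337, minus strand): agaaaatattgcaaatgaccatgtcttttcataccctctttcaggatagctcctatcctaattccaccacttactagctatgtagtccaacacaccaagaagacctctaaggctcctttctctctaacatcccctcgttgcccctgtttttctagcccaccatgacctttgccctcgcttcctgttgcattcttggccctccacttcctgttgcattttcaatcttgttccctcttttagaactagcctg
Ccl9 (GRCm38.p6 chr11:83578637-83578886, minus strand): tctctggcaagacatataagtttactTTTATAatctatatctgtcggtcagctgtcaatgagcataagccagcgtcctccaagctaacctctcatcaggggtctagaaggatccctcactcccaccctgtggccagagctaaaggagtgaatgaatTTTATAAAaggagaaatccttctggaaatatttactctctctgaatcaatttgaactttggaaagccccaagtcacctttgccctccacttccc
Cxcl12 (GRCm38.p6 chr6:117168285-117168534, plus strand): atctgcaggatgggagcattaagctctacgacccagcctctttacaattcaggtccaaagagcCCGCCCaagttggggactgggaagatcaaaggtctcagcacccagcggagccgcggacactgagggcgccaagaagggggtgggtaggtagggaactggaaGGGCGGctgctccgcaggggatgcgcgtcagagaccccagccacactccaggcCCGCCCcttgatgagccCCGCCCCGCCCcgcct
Cxcl10 (GRCm38.p6 chr5:92348890-92349139, minus strand): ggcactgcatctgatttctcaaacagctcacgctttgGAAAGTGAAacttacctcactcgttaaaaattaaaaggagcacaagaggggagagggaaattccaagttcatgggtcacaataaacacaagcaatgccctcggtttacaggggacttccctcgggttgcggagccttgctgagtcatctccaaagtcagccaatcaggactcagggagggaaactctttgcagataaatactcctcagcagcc
The Ccl6 window held none of them, that of Ccl9 held the TATA box letters, that of Cxcl12 the GC box letters, and that of Cxcl10 the interferon element core. Among all 27025 RefSeq windows of this length, 13% held the TATA box letters, 32.9% the GC box letters and 7.16% the interferon element core on at least 1 strand. The members had 46 such windows, of which 13, 7 and 8 did so, in that order. The number of CpG dinucleotides had a median of 3 in the members and 6 in all windows. The 5 members with a window and with reads over the floor in 8 or more libraries had 2 to 14 CpG (median 7), and the 23 with reads over the floor in 1 to 4 libraries had 1 to 19 (median 3). A match of letters is a description of the sequence and no evidence of binding.

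Library depth was even, with 9984743 to 14094155 counts per library, and 3 counts, the floor used below, corresponded to 0.213 to 0.300 CPM (counts divided by the total count of the library, times 1000000). RNA was amplified from few cells, and counts jumped between libraries of the same group. The correlation of log2(CPM + 1) across genes was 0.485 to 0.709 between libraries, so that no library was a copy of another. Of the 22 members that passed the filter (more than 5 counts in at least 3 of 10 libraries), 17 (77.3%) had 0 counts in 1 library and at least 100 in another of the same group, against 47% of all 14815 genes that passed. Several libraries stood apart by marker genes. Lyve1, a lymphatic marker, had 2 and 1 counts in naive libraries 1 and 5 and 946 to 10709 in the others. Naive library 1 had no count on Pdpn or Prox1, whereas naive library 5 had 351 and 843. SCVS library 5 had 198 counts on Pdpn and 2 on Prox1. The sum of 8 lymphatic markers was 66.1, 2912, 1062, 1354 and 188 CPM in naive libraries 1 to 5. In SCVS libraries 1 to 5 it was 1414, 1148, 3223, 3177 and 444 CPM. Naive library 5 had the lowest sum of 8 pan-endothelial markers, 549 CPM against 4558 to 8053 in the other libraries. The sum of 8 blood endothelial markers was 7854, 6073, 10273, 7634 and 313 CPM in naive libraries 1 to 5. In SCVS libraries 1 to 5 it was 6519, 9324, 5403, 5236 and 5219 CPM. It lay above the lymphatic sum in all 10 libraries. The sum of 8 mural markers lay between 431 and 7687.5 CPM. Below, LECs names the sorted cells, and the part of other cell types in their values was not tested. Ptprc, which encodes CD45, had 27, 113 and 404 counts in SCVS libraries 1, 4 and 5 and at most 1 in the others. The sum of 12 macrophage and monocyte markers lay between 3.84 and 847 CPM (median 173) in naive and between 151 and 6628 CPM (median 593) in SCVS libraries, with the highest value in SCVS library 4, where 11 of the 12 were over the floor. The sum of 6 erythroid markers reached 4915 CPM and that of 6 mast cell markers 240.3 CPM in SCVS library 5, against at most 125 and 18.8 CPM elsewhere.

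Of the 63 members, 44 had more than 3 counts in at least 1 library, 11 had no count at all, and 4 exceeded the floor in all 10 libraries. These 4 were the ligands Cxcl12, Cxcl16, Cx3cl1 and Ccl27a. A further 14 exceeded it in 1 library only. The number of members over the floor was 12, 13, 9, 19 and 11 in naive libraries 1 to 5 and 12, 13, 14, 24 and 28 in SCVS libraries 1 to 5. SCVS libraries 4 and 5 thus held more members than any naive library, and the other 3 SCVS libraries lay within the naive range. The group means were 12.8 ± 3.77 and 18.2 ± 7.29 members (SD, n = 5 each). Per 1000 genes over the floor in the same library, the number of members was 1.07, 1.03, 0.793, 1.45 and 0.865 in naive and 0.993, 0.929, 1.14, 1.76 and 2.08 in SCVS libraries 1 to 5, with the same SCVS libraries on top.

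**Figure D1:**
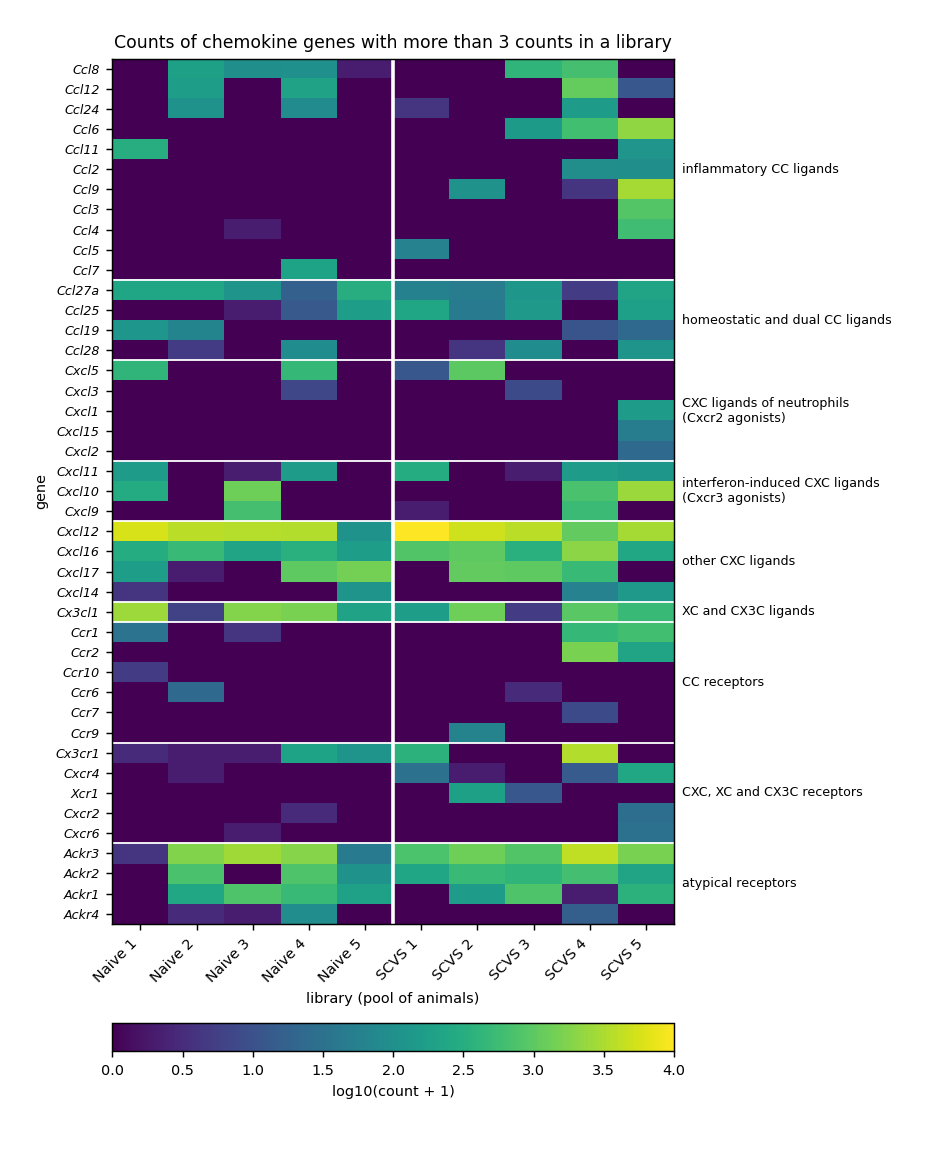
Heat map of the counts, as log10(count + 1), of 43 of the 44 chemokine genes with more than 3 counts in a library, in rows by role, for the 10 libraries in columns, with a white line between the naive (left) and SCVS (right) groups. Cxcl12, Cxcl16, Cx3cl1 and Ccl27a have counts in every library, whereas Ccl2, Ccl3 and Ccr2 have counts in SCVS libraries 4 or 5 only.

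**Figure D2:**
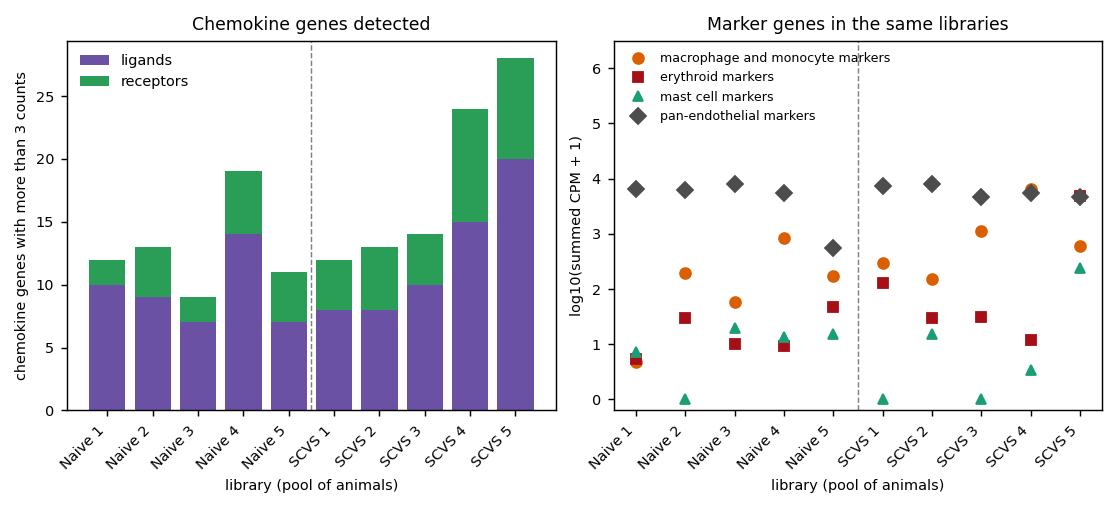
Left, the number of chemokine genes with more than 3 counts in each library, split into ligands and receptors. Right, log10(summed CPM + 1) of 4 marker lists in the same libraries. The bars are tallest in SCVS libraries 4 (24 genes) and 5 (28 genes), the libraries with the highest sums of macrophage and monocyte markers and of erythroid and mast cell markers, respectively.

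No member passed the threshold between SCVS and naive LECs. The main test was the quasi-likelihood test of edgeR, adjusted over all 14815 genes. In it, 0 of the 22 members had an adjusted p under 0.1, as did 0 genes in all (0%), and the members' adjusted p lay between 0.964 and 1.0. At an unadjusted p under 0.05, the members Ccl6, Cxcr4 and Cxcl16 (3 of 22, 13.6%) were higher in SCVS, against 286 of all genes (1.93%). Ccl6 and Cxcr4 had passed the filter through SCVS libraries alone, so their direction was fixed by it and the share is no support for one. None of the 22 was lower, against 174 of all genes (1.17%). In DESeq2 with its default settings, 1 member (Ccl6, 4.55%) was called higher at an adjusted p under 0.1, against 74 of 13998 genes (0.529%), and in edgeR's likelihood ratio test again 1 member, Ccl6, against 24 genes (0.162%). The log2 fold change was above 0 in 16 of 22 members (72.7%) and in 48.2% of all genes, with a median of 0.88 in the members and −0.03 in all genes. Ccl6 and Cxcr4, whose direction the filter fixed, count among the 16 and in the median. Ccl6 is also the call of DESeq2 and of the likelihood ratio test. These shares and the median are thus no support for a direction either. Without SCVS library 4 the members' median was 0.24, without SCVS library 5 it was 0.40, and without both it was 0.43. The filter was applied anew in these fits, so the medians are over 17, 17 and 13 members and not over the same 22. Groups did not overlap in CPM for 0 of 22 members and for 0.628% of all genes.

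**Figure D3:**
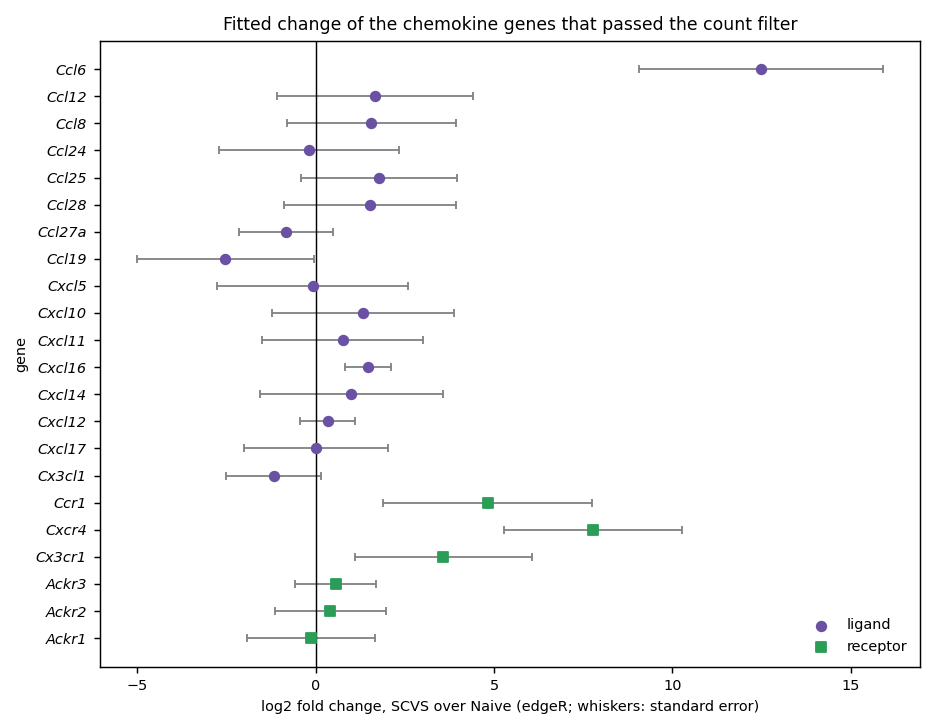
Log2 fold change of SCVS over naive LECs with its standard error, from edgeR, for the 22 chemokine genes that passed the count filter, ordered by role. Points are ligands (circles) and receptors (squares), and the 3 largest values belong to Ccl6 (12.48), Cxcr4 (7.77) and Ccr1 (4.83), which had at most 32 counts in any naive library.

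Detection in 1 group only was uneven between the groups. Of the 44 members with reads over the floor, 17 (38.6%) exceeded it in SCVS libraries only, against 19.3% of the 24195 genes with reads over the floor. They included the ligands Ccl2, Ccl3, Ccl4, Ccl5, Ccl6, Ccl9, Cxcl1, Cxcl2 and Cxcl15 and the receptors Ccr2, Ccr7, Ccr9, Cxcr2, Cxcr4, Cxcr6 and Xcr1. Most of them act on monocytes, neutrophils or lymphocytes or are carried by those cells. SCVS libraries 1 to 5 held 2, 3, 2, 6 and 12 of these 17. Without SCVS library 5 the number was 10 of 37 members, against 16.4% of all genes then, and without SCVS libraries 4 and 5 it was 6 of 33, against 12.7% of all genes. In naive libraries only, 3 members (6.82%), Ccl7, Ccr6 and Ccr10, exceeded the floor, against 13.1% of genes, and without SCVS libraries 4 and 5 there were 12 of 33 members, against 20.3% of all genes. The members were seen in fewer libraries than genes at large. Of the 44 members, 14 exceeded the floor in 1 library only and 4 in all 10, against 6437 and 5639 of the 24195 genes. A gene seen in 1 library falls in 1 group by construction, so the shares of all genes are not a like background. SCVS libraries 4 and 5, which carried most of the SCVS count, also had the most Ptprc reads. Library 4 had the highest sum of macrophage and monocyte markers and library 5 those of mast cell and erythroid markers. SCVS library 5 also had the highest sum of 8 fibroblast markers, 1850 CPM, with 1693 CPM in naive library 2. The sum of 8 neural markers was 1784 and 1918 CPM in SCVS libraries 4 and 5 and at most 280 CPM in SCVS libraries 1 to 3. It was highest in naive library 5, at 3563 CPM. The part of any of these cell types in the result was not tested.

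In most libraries the ligands found in every library made up much of the family's reads. They made up a smaller part in naive library 5 and SCVS libraries 4 and 5. The summed CPM of all members was 1002, 608, 809, 831 and 225 in naive libraries 1 to 5 and 934, 978, 665, 1481 and 1729.5 in SCVS libraries 1 to 5. Naive library 5 was lowest, and SCVS libraries 4 and 5 were highest. Cxcl12 alone took between 3.66% and 55.4% of the members' counts in naive and between 5.66% and 77.1% in SCVS libraries. The other CXC ligands (Cxcl12, Cxcl13, Cxcl14, Cxcl16 and Cxcl17) summed to 139 to 599 CPM in naive and 278 to 778 CPM in SCVS libraries, whereas the inflammatory CC ligands summed to 0.0750 to 43.5 CPM and 4.33 to 673 CPM.

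**Figure D4:**
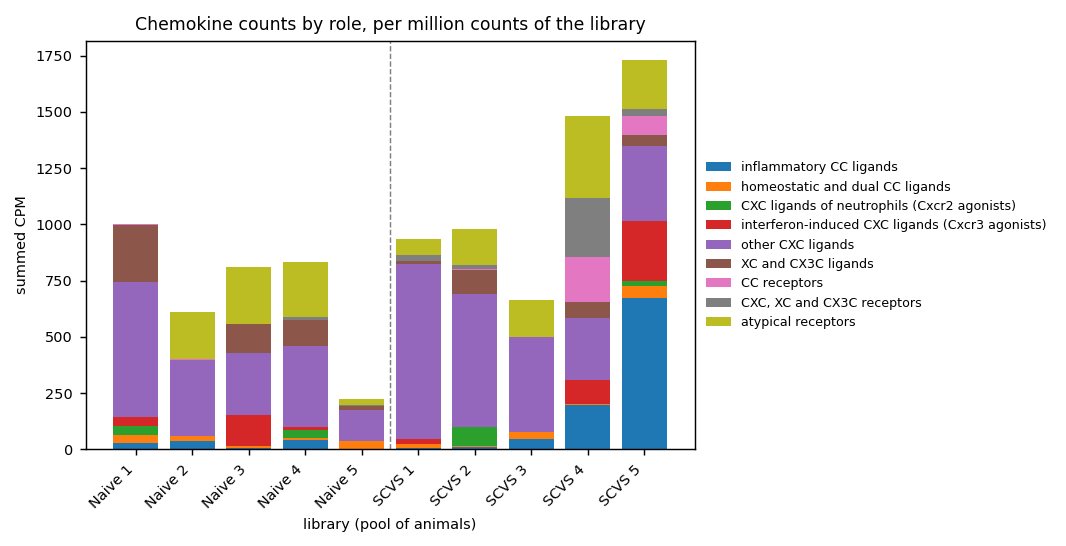
Stacked bars of the summed CPM of the chemokine genes in each library, coloured by role, with a dashed line between the groups. The group of other CXC ligands, mostly Cxcl12, fills most of the bar in SCVS library 1 (778 of 934 CPM), and inflammatory CC ligands (673 CPM) fill the largest part in SCVS library 5.

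Cxcl12 (ENSMUSG00000061353), the ligand of Cxcr4 and Ackr3 that keeps blood-forming cells and leukocytes in their niches, had the highest mean CPM of the family. It had 5782, 3817, 3601, 3513 and 110 counts in naive libraries 1 to 5 and 10151, 5052, 3845, 1109 and 2926 counts in SCVS libraries 1 to 5. The groups overlapped over nearly their whole range, and the lowest value belonged to naive library 5, the library poor in endothelial markers. The mean was 276 ± 194 CPM in naive and 365 ± 232 CPM in SCVS LECs (SD, n = 5 each; two-sided exact permutation test, p = 0.5635). The log2 fold change was 0.33 with a standard error of 0.78, and it was −0.06 without SCVS library 1.

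Cxcl16 (ENSMUSG00000018920), a membrane-tethered ligand of Cxcr6, had the smallest standard error of the tested members. Its counts were 295, 512, 213, 346 and 169 in naive and 817, 1033, 350, 1996 and 253 in SCVS libraries 1 to 5. SCVS libraries 1, 2 and 4 lay above all naive libraries, and SCVS libraries 3 and 5 lay within the naive range in CPM. The mean was 24.4 ± 11.0 CPM in naive and 69.5 ± 51.5 CPM in SCVS LECs (SD, n = 5 each; two-sided exact permutation test, p = 0.07143). The log2 fold change was 1.47 with a standard error of 0.64, and the adjusted p in edgeR was 1.0. Over the alternatives the log2 fold change stayed between 0.89 and 1.70. Zmynd15 overlaps Cxcl16 on the opposite strand, and whether the counting used strand is not stated.

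Cx3cl1 (ENSMUSG00000031778), or fractalkine, the tethered ligand of Cx3cr1, had 2632, 5, 1842, 1559 and 198 counts in naive and 175, 1322, 4, 945 and 519 counts in SCVS libraries 1 to 5. Both groups held a library near the floor and libraries over 900 counts. The mean was 103 ± 102 CPM in naive and 48.9 ± 44.1 CPM in SCVS LECs (SD, n = 5 each; two-sided exact permutation test, p = 0.3016). Its log2 fold change of −1.18 (standard error 1.32) was among the 3 lowest of the family by edgeR's p, with Ccl19 and Ccl27a, and turned to 0.10 in limma with voom.

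The homeostatic and dual CC ligands, which mostly guide lymphocytes and dendritic cells in skin, gut and lymphoid tissue, had 4 tested members of 11. Of the other 7, none exceeded the floor. Ccl27a, a skin ligand of Ccr10, had 220, 220, 116, 16 and 310 counts in naive and 57, 49, 130, 4 and 215 in SCVS libraries 1 to 5, or 14.2 ± 9.26 and 8.09 ± 8.37 CPM (SD, n = 5 each). Its log2 fold change was −0.84 (standard error 1.32), and the groups overlapped. Il11ra1 overlaps Ccl27a on the opposite strand. Ccl19, a ligand of Ccr7, had 126 and 63 counts in naive libraries 1 and 2, 10 and 22 counts in SCVS libraries 4 and 5, and 0 in the other 6 libraries. Its log2 fold change of −2.53 (standard error 2.48) was the lowest of the 22 members. Ccl25, a ligand of Ccr9 in thymus and small intestine, had 0, 0, 1, 12 and 175 counts in naive and 229, 45, 147, 0 and 180 in SCVS libraries 1 to 5. It exceeded the floor in 2 naive and 4 SCVS libraries, with a log2 fold change of 1.78 (standard error 2.18). Ccl28, a mucosal ligand of Ccr10, had 88 counts in naive library 4, 86 and 116 counts in SCVS libraries 3 and 5 and at most 4 in the others.

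**Figure D5:**
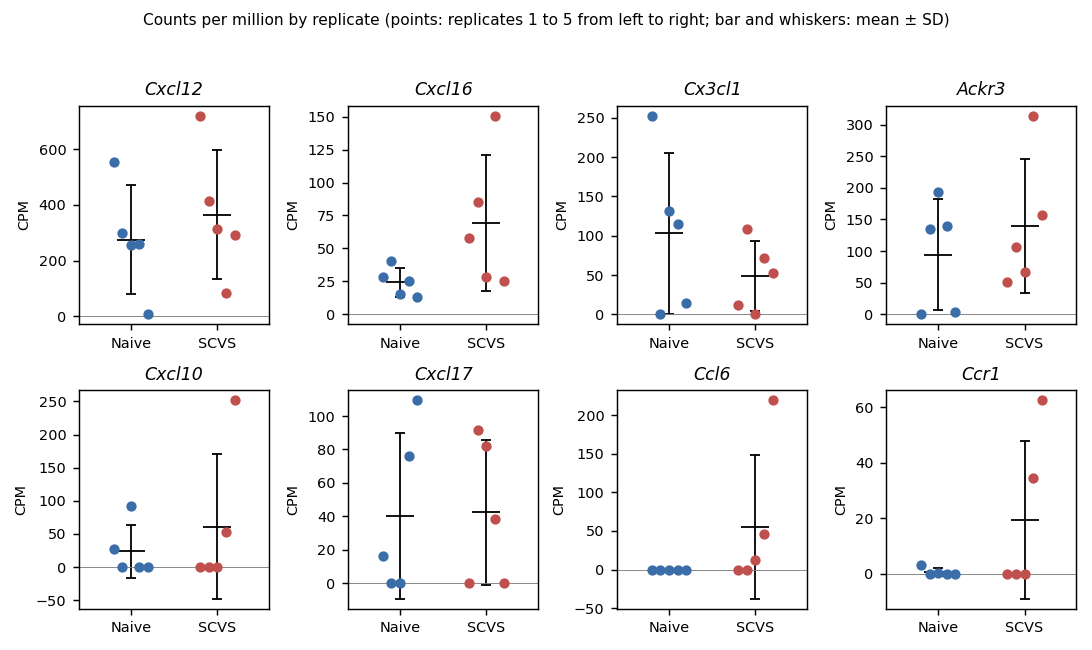
CPM in each replicate of 8 chemokine genes, the 6 with the highest mean CPM together with Ccl6 and Ccr1, where points are libraries 1 to 5 of a group from left to right and the bar and whiskers are the group's mean ± SD. All panels show overlapping groups, and the 0 counts of Ccl6 in the naive libraries are shared by SCVS libraries 1 and 2.

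Inflammatory CC ligands, which draw monocytes, eosinophils and T cells to inflamed tissue, had 11 of 12 members over the floor in some library and 4 that passed the filter. Their summed CPM was 29.9, 36.4, 7.08, 43.5 and 0.0750 in naive and 4.33, 9.20, 46.3, 199 and 673 in SCVS libraries 1 to 5. SCVS libraries 4 and 5 lay far above every naive library, SCVS library 3 just above the highest of them, and SCVS libraries 1 and 2 within the naive range. The number of these ligands over the floor was 1, 3, 1, 4 and 0 in naive and 1, 1, 2, 5 and 7 in SCVS libraries 1 to 5.

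Ccl6 (ENSMUSG00000018927), a ligand of Ccr1 made by myeloid cells, had 0 counts in all 5 naive libraries and 0, 0, 152, 609 and 2188 counts in SCVS libraries 1 to 5. SCVS libraries 1 and 2 thus did not differ from the naive libraries, and library 5 held 74.2% of all its counts. The SCVS mean was 55.5 ± 93.4 CPM (SD, n = 5), at least 234-fold higher than the floor of the naive libraries, and the SD exceeded the mean. Ccl6 reads lay in 3 libraries, all SCVS. For such a pattern the two-sided exact permutation test can give no p below the one found (p = 0.1667). The test therefore could not decide whether the groups differed. In edgeR, the adjusted p of Ccl6 was 0.964 by quasi-likelihood and 0.06312 by the likelihood ratio test. It was at most 1e-10 in DESeq2, and ranged from that value to 1.0 over the alternatives. Without SCVS library 3, 4 or 5, Ccl6 no longer passed the filter. The study singled out Ccl6 from these same libraries, so its values are not independent evidence of its direction. E230016K23Rik overlaps Ccl6 on the opposite strand.

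Macrophage and monocyte markers had a higher sum in the SCVS libraries with Ccl6 reads than in the other SCVS libraries. Their sum was 1121, 6628 and 593 CPM in SCVS libraries 3, 4 and 5, against 292 and 151 CPM in SCVS libraries 1 and 2. The order differed, since Ccl6 was highest in SCVS library 5 and the marker sum in SCVS library 4. In SCVS library 5, 8 of the 12 markers were over the floor, whereas Adgre1, Cd68 and Itgam had 0 counts and Mrc1 had 2. Naive library 4 had a marker sum of 847 CPM, 3532 counts of the macrophage gene Lyz2 and no count of Ccl6. The part of these cells in the Ccl6 result was not tested.

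Ccl9 (ENSMUSG00000019122), the neighbour of Ccl6 in sequence and a ligand of the same receptor, did not pass the filter. It had 112 counts in SCVS library 2, 3 in SCVS library 4, 2864 in SCVS library 5 and 0 in the other 7 libraries. Its SCVS mean was 59.3 ± 127 CPM (SD, n = 5), at least 250.3-fold higher than the naive floor, with 1 library holding nearly all reads. Ccl6 and Ccl9 were both over the floor in SCVS library 5 and in no other library.

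Ccl3 and Ccl4, ligands secreted by activated myeloid cells and T cells, were close to absent outside a single library. SCVS library 5 had 841 counts of Ccl3 and 597 of Ccl4, and the other libraries had 0 apart from 1 Ccl4 count in naive library 3. Ccl5, a ligand that draws T cells and monocytes, had 58 counts in SCVS library 1 and none elsewhere. The monocyte ligand Ccl2 had 95 and 96 counts in SCVS libraries 4 and 5 and none elsewhere. Ccl7, which shares the receptor Ccr2 with it, had 208 counts in naive library 4 and 0 in the other 9 libraries. None of these passed the filter, and each rests on 1 or 2 libraries.

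Ccl8, Ccl12 and Ccl24 had reads in both groups. Ccl8, a monocyte ligand that binds Ccr8 in the mouse, had 0, 186, 98, 102 and 1 counts in naive and 0, 0, 419, 651 and 0 in SCVS libraries 1 to 5. It exceeded the floor in 3 naive and 2 SCVS libraries, and the log2 fold change of 1.56 (standard error 2.38) was −2.41 in limma with voom. Ccl12, a mouse ligand of Ccr2, had 171 and 198 counts in naive libraries 2 and 4, 1116 and 11 counts in SCVS libraries 4 and 5 and 0 in the others. The log2 fold change, 1.67 with a standard error of 2.74, became −4.26 without SCVS library 4. Ccl24, an eosinophil ligand of Ccr3, had 108 and 83 counts in naive libraries 2 and 4, 159 in SCVS library 4 and at most 3 in the others, with a log2 fold change of −0.20 (standard error 2.53). In each of the 3 genes the sign of the change turned with a left-out library or with the tool. Ccl11, a further eosinophil ligand, had 312 counts in naive library 1, 123 in SCVS library 5 and 0 in the other 8 libraries, and did not pass the filter.

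The ligands of Cxcr3, which interferons induce and which draw T cells and natural killer cells, were present in both groups. Cxcl10 had 291, 0, 1286, 0 and 0 counts in naive and 0, 0, 0, 705 and 2512 in SCVS libraries 1 to 5. Each group thus had 2 libraries with at least 291 counts and 3 with none. Its mean was 24.0 ± 39.9 CPM in naive and 61.0 ± 109 CPM in SCVS LECs (SD, n = 5 each; two-sided exact permutation test, p = 0.7222), and the log2 fold change of 1.32 (standard error 2.56) was −0.89 without SCVS library 5. Cxcl11 had 159, 0, 1, 155 and 0 counts in naive and 294, 0, 1, 164 and 131 in SCVS libraries 1 to 5, with a log2 fold change of 0.76 (standard error 2.25). Cxcl9 had 649 counts in naive library 3, 538 in SCVS library 4 and at most 1 in the others. Art3 overlaps Cxcl10 and Cxcl11 on the opposite strand.

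The ligands of Cxcr2, which draw neutrophils, were rare. Cxcl5 had 412, 0, 0, 462 and 0 counts in naive and 11, 975, 0, 0 and 0 in SCVS libraries 1 to 5, and its log2 fold change was −0.08 with a standard error of 2.67. Cxcl1 had 158 counts in SCVS library 5 and none elsewhere, and Cxcl2, Cxcl3 and Cxcl15 had at most 48 counts in any library. The summed CPM of neutrophil markers was at most 26.2 in naive and 82.2 in SCVS libraries, and it was 3.91 in SCVS library 5. The highest sum, in SCVS library 4, was mostly Csf3r (77.4 CPM).

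Cxcl14 and Cxcl17, CXC ligands with less settled receptors, varied widely within both groups. Cxcl17, a mucosal protein whose place among the chemokines is debated, had 166, 1, 0, 1034 and 1458 counts in naive and 0, 1112, 1008, 510 and 0 in SCVS libraries 1 to 5. Its means were 40.3 ± 49.7 and 42.3 ± 43.5 CPM (SD, n = 5 each; two-sided exact permutation test, p = 0.9524). Cxcl14 had 117 counts in naive library 5, 59 and 139 counts in SCVS libraries 4 and 5 and at most 3 in the others, with a log2 fold change of 1.00 (standard error 2.56). Per length, as CPM per kilobase of the longest annotated transcript (RPKM), the highest mean levels over the 10 libraries were 56.9 for Cxcl12, 54.3 for Cxcl17, 38.8 for Cxcl10 and 38.1 for Ackr3. The order of the top members by CPM and by RPKM was thus not the same, as Cxcl12 has a transcript of 5627 bases and Cxcl17 one of 761.

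The CC receptors, which leukocytes carry, were low in naive LECs. Of 11 such genes, 7 exceeded the floor in a library and 1, Ccr1, passed the filter. Their summed CPM was at most 3.45 in naive libraries and 0, 4.93, 0.243, 202 and 84.3 in SCVS libraries 1 to 5. Only SCVS libraries 4 and 5 lay well above the naive range. Ccr1 (ENSMUSG00000025804), the receptor that Ccl6 and Ccl9 share with Ccl3, Ccl5 and Ccl7, had 32, 0, 3, 0 and 0 counts in naive and 0, 0, 0, 458 and 624 in SCVS libraries 1 to 5. The mean was 0.657 ± 1.35 CPM in naive and 19.4 ± 28.4 CPM in SCVS LECs (SD, n = 5 each; two-sided exact permutation test, p = 0.4444). Nearly all Ccr1 reads lay in 2 SCVS libraries, and for such a pattern this p could hardly be smaller. The Ccr1 log2 fold change of 4.83 had a standard error of 2.93, and the adjusted p was 1.0 in edgeR.

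Ccr2 (ENSMUSG00000049103), the receptor by which monocytes leave the bone marrow, was seen in SCVS libraries only. It had 1595 and 218 counts in SCVS libraries 4 and 5 and 0 in the other 8 libraries, at least 120.3-fold above the naive floor in the mean. SCVS library 4, with most of these reads, had 11 of the 12 macrophage and monocyte markers over the floor, with Itgam at 0. It had 41004 counts of Lyz2 and 14310 of C1qb, against at most 6457 and 1095 in the other libraries. SCVS library 5 had 8 of the 12 over the floor, with Adgre1, Cd68 and Itgam at 0. SCVS library 3, with 6457 counts of Lyz2, had none of Ccr2. The part of macrophages and monocytes in the receptor reads was not tested. Ccr6, Ccr7, Ccr9 and Ccr10 had at most 60 counts in any library. Lztfl1 and Slc6a20a overlap Ccr9 on the opposite strand, and Cntnap1 so overlaps Ccr10.

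Cxcr4 (ENSMUSG00000045382), the signalling receptor of Cxcl12, had 0, 1, 0, 0 and 0 counts in naive and 31, 1, 0, 13 and 241 counts in SCVS libraries 1 to 5. SCVS libraries 1, 4 and 5 lay above all naive libraries, library 3 was at 0, and library 5 held 84.3% of the SCVS counts. Its SCVS mean was 5.48 ± 10.5 CPM (SD, n = 5), at least 23.2-fold higher than the naive floor. The log2 fold change was 7.77 with a standard error of 2.50, and the adjusted p was 0.964 in edgeR and 0.1965 in DESeq2, within a range of 0.1921 to 1.0 over the alternatives. In the exact permutation test of CPM it was the only tested member with an unadjusted p under 0.05 (two-sided, p = 0.04762), and its adjusted p over all genes was 1.0. In TMM-scaled CPM the permutation p was 0.0873. Cxcr4 passed the filter through SCVS libraries 1, 4 and 5 alone, so a tested value could only be higher in SCVS. The SCVS libraries with Cxcr4 reads over the floor were the same 3 that held Ptprc reads, and the part of CD45+ cells in this value was not tested.

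Cx3cr1, the receptor of Cx3cl1 on macrophages and monocytes, had 2, 1, 1, 210 and 115 counts in naive and 371, 0, 0, 3447 and 0 in SCVS libraries 1 to 5. SCVS library 4 held 90.3% of the SCVS counts, and 3 SCVS libraries had none. The log2 fold change was 3.58 with a standard error of 2.49, and it was −0.18 in limma with voom. Xcr1, a receptor of cross-presenting dendritic cells, had 188 and 11 counts in SCVS libraries 2 and 3 and 0 elsewhere, and its ligand Xcl1 had no count. Cxcr2 and Cxcr6 had at most 30 counts in any library, and Cxcr1, Cxcr3 and Cxcr5 did not exceed the floor.

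The atypical receptors, which LECs use to take up chemokines, had more reads than all other receptors together in 4 of the 5 naive and 4 of the 5 SCVS libraries, all but naive library 1 and SCVS library 4. Their summed CPM was 0.288, 208, 249.7, 242 and 26.0 in naive and 68.0, 161, 165, 363 and 217 in SCVS libraries 1 to 5. Naive libraries 1 and 5, which had almost no Lyve1, were the lowest of all libraries. Ackr3 (ENSMUSG00000044337), which removes Cxcl12 and Cxcl11, had 3, 1718, 2698, 1901 and 43 counts in naive and 723, 1300, 823, 4157 and 1575 in SCVS libraries 1 to 5. The mean was 94.2 ± 87.5 CPM in naive and 139 ± 106 CPM in SCVS LECs (SD, n = 5 each; two-sided exact permutation test, p = 0.5000). Its log2 fold change of 0.56 (standard error 1.15) was −0.17 without naive libraries 1 and 5, −0.011 without SCVS library 4 and −0.41 without SCVS libraries 4 and 5, so that its direction turned with the libraries left out.

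Ackr2 (ENSMUSG00000044534), which degrades inflammatory CC chemokines, had 0, 698, 0, 778 and 107 counts in naive and 235, 495, 411, 627 and 218 in SCVS libraries 1 to 5. All SCVS libraries had at least 218 counts, and 2 naive libraries were at 0, yet the groups overlapped. The mean was 24.0 ± 29.4 CPM in naive and 32.0 ± 12.8 CPM in SCVS LECs (SD, n = 5 each; two-sided exact permutation test, p = 0.5794), and the log2 fold change of 0.41 (standard error 1.57) was −0.21 without naive libraries 1 and 5. Ackr1, which venular endothelium uses to carry chemokines across the vessel wall, had 0, 237, 790, 512 and 196 counts in naive and 0, 159, 794, 1 and 373 in SCVS libraries 1 to 5, with a log2 fold change of −0.14 (standard error 1.80). Ackr4, which clears Ccl19, Ccl21 and Ccl25, had 92 counts in naive library 4, 15 in SCVS library 4 and at most 2 in the others, and did not pass the filter.

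Ligands and their receptors were compared library by library, counting a gene as present with more than 3 counts. Cxcl12 was present in all 10 libraries, together with Ackr3 in 9 of them, 4 naive and 5 SCVS, and with Cxcr4 in 3, all SCVS. Cx3cl1 was present with Cx3cr1 in 4 libraries, 2 in each group, and Cxcl16 with Cxcr6 in 1. Ccr1 was present in 1 naive and 2 SCVS libraries, and both SCVS libraries also held Ccl6, whereas the naive library held none of its 5 listed ligands. Ccl2 and Ccl12 were each present with Ccr2 in SCVS libraries 4 and 5. Ligands without their receptor were common, since Cxcl10 and Cxcl11 were present in 4 and 5 libraries and Cxcr3 in none. Because a pool holds many cells, presence in the same library does not show that 1 cell carried both.

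Chemokine genes outside the symbol rule and the genes downstream were read from the same test. Of 4 further chemokine genes (Ccl21a, Pf4, Ppbp and Ccrl2), 0 passed in either direction. Ccl21a had 76 to 217 counts in naive and 94 to 346 in SCVS libraries, or 10.1 ± 4.68 and 19.5 ± 8.76 CPM (SD, n = 5 each), with a log2 fold change of 0.91 (standard error 0.94). Among 45 tested genes of chemokine receptor signalling (G protein subunits, arrestins, kinases, Rgs genes and the migration machinery), 0 passed at an adjusted p under 0.1, and the median log2 fold change was 0.26. Dock2, which activates Rac in leukocytes, and Rgs18, a G protein regulator of blood cells, had log2 fold changes of 6.99 and 5.81. Their standard errors were 2.44 and 2.36, and the adjusted p in edgeR was 0.964 and 1.0. Of 12 tested genes that make or carry the heparan sulphate on which chemokines are held, 0 passed, and the median was −0.18. No gene of the 12 cell type marker lists passed either. The median log2 fold change was 2.76 over 11 macrophage and monocyte, 6.02 over 5 erythroid and −1.60 over 8 mural markers. It was 0.67 over 8 lymphatic, −0.10 over 8 blood endothelial, 0.06 over 8 pan-endothelial, 0.93 over 4 platelet, −0.43 over 7 fibroblast and −0.12 over 8 neural markers. The neutrophil, lymphocyte and mast cell lists had 1 tested gene each. The erythroid sum was 4915 CPM in SCVS library 5 and at most 125 CPM elsewhere. Mural values ran from −4.16 (Tagln) to 3.13 (Cspg4).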

How the data were processed

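The authors sorted LECs, amplified their transcriptome with a kit for small inputs and sequenced paired ends. They deposited raw counts per gene for each library, with no normalization or filter. The submitters' processing notes name cutadapt 1.9.1, HISAT2 2.0.1, HTSeq 0.6.1, DESeq2 and GRCm38, whereas the methods name mm9. Of the 55401 identifiers, 22812 are not in the mm9 annotation GENCODE M1, so no gene coordinates are given except RefSeq promoter windows. Annotation and strand setting are not given in the sources used here. Groups and replicate numbers came from the labels. Pools are taken as biological replicates, and cohorts are not labelled.

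Genes that exceeded 5 counts in 3 or more of 10 libraries were fitted with edgeR 4.0.16 (quasi-likelihood, TMM, Benjamini-Hochberg over 14815 genes, threshold 0.1) in R 4.3.3. CPM used each library's total count and was compared by a two-sided exact permutation test over 252 splits, whose smallest p is 0.007937. That p is out of reach for a gene with reads in few libraries. Standard errors are the log2 fold change over the square root of F. Where a group had at most 3 counts per library, the fold is a bound against the mean CPM of 3 counts in that group. Counts are amplified reads, so the floor covers counting error only. RPKM used the longest GENCODE M1 transcript, found for 20 of 22 tested members. The sources used here do not state that replicate numbers pair the libraries. The correlation of deviations of same-numbered libraries was −0.02 to 0.15, and it was not compared with that of differently numbered libraries. Alternatives were DESeq2 1.42.0 with and without its Cook filter, limma 3.58.1 with voom, other edgeR tests, scalings and filters, a replicate block, a covariate for genes detected, other detection floors and leaving out each library. Leaving out SCVS libraries 4 and 5, or naive libraries 1 and 5, together was added after seeing the data, as were floors and left-out libraries for detection in 1 group only. DESeq2 p below 1e-10 are given as that limit. 46 members matched a RefSeq promoter by symbol.

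Members and lists were chosen with earlier results of these data known. All tested members are named. Counts in every library are given for Ccl6, Ccr1, the 3 smallest edgeR p in each direction, the 6 highest mean CPM, tested receptors with their ligands and tested atypical receptors. Members that did not pass the filter are named with counts where any library had at least 100, apart from 1 gene that is not reported here on its own. Other names were added after their values were seen.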

Additional observations from a re-analysis of the deposited data

Results flagged for a closer look

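Single libraries stood apart in many of the values above. The gap between the highest library of a group and the next one was divided by the range of the group's 5 libraries. It was compared with Dixon's critical value of 0.71, which chance exceeds in about 1 in 20 groups of normally distributed values. It was exceeded in 29 of 81 groups, always at the high end. This share cannot be set against 1 in 20, because CPM cannot be negative and many libraries had no reads of a gene. Reads in a single library of a group give a gap of 1 by construction. Members that did not pass the filter, such as Ccl3, Ccl4, Ccl7 and Cxcl1, were taken up for a library with at least 100 counts. The gaps below only describe which library was highest.

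Among the naive libraries, Ccl11 and Ccr1 stood out in library 1 (gap 1 and 0.93), Cxcl9 in library 3 (1), Ccl7 and Ccl28 in library 4 (1 and 0.952) and Ccl25 and Cxcl14 in library 5 (0.933 and 0.967). The sum of macrophage and monocyte markers stood out in naive library 4 (0.774), and that of neural markers in naive library 5 (0.77).

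In SCVS library 4 the gap was 0.998 for Cxcl9, 0.987 for Ccl12, 0.982 for Ccl24, 0.899 for Cx3cr1 and 0.819 for Ccr2, beside 0.85 for macrophage and monocyte and 0.916 for neutrophil markers. The neutrophil sum there was 77.4 CPM of Csf3r and 4.84 CPM of Camp, with S100a8, S100a9, Ly6g, Ngp, Retnlg and Mmp8 at 0. In SCVS library 5 it was 1 for Ccl3, Ccl4, Ccl11 and Cxcl1, 0.968 for Ccl9, 0.909 for Cxcr4, 0.79 for Ccl6 and 0.788 for Cxcl10, beside 0.977 for erythroid and 0.941 for mast cell markers. In SCVS library 2 it was 0.99 for Cxcl5 and 0.942 for Xcr1, beside 0.777 for lymphocyte markers. The part of these cell types in the chemokine values was not tested.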

How the results depend on the processing

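Calls depended on the tool. The number of members called was 0 in the main test and 1, Ccl6, in DESeq2 with and without its Cook filter and in edgeR's likelihood ratio test, where its log2 fold change was 25.52, 25.52 and 12.48. The other alternatives that were run called 0. Apart from Ccl6, no member passed the threshold under any alternative.

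The members' median log2 fold change (0.88) was 0.42 with filterByExpr, 1.37 with no filter, 0.56 with a replicate block, 0.43 without SCVS libraries 4 and 5 and between 0.24 and 1.22 with each replicate left out in turn, lowest without SCVS library 4. These medians are over different sets, with 11 members under filterByExpr, 52 with no filter and 13 without SCVS libraries 4 and 5. With each replicate left out the sets held 17 to 22 members. The number with reads in SCVS libraries only (17) was 6 without SCVS libraries 4 and 5 and 10 to 19 with each replicate left out, and that in naive libraries only (3) was 12, and 2 to 6, respectively, and 6 at a floor of at least 1 count. The mean number of members per library at that floor was 17 in naive and 20.6 in SCVS libraries. Groups that do not overlap were found for 0 to 1 members with each replicate left out, Cxcr4 without SCVS library 3. The permutation p of Cxcr4 was 0.0873 in TMM-scaled CPM.

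Directions reversed under at least 1 alternative for 12 of the 22 members. With each replicate left out, 24 of 202 values reversed, and the range was −1.06 to 0.40 for Ackr1, −0.011 to 1.02 for Ackr3, −4.26 to 2.39 for Ccl12, −0.53 to 0.13 for Ccl24, −0.89 to 3.07 for Cxcl10, −0.060 to 0.80 for Cxcl12, −0.43 to 0.85 for Cxcl17 and −6.21 to 0.79 for Cxcl5. Without SCVS libraries 4 and 5 the log2 fold change was 0.0042 for Ackr1, −0.41 for Ackr3 and 0.67 for Cxcl5, and without naive libraries 1 and 5 it was −0.21 for Ackr2, −0.17 for Ackr3 and 0.39 for Cxcl5. Of the other 253 values, 17 reversed. With a covariate for the genes detected, Ackr1 was at 0.075, Ackr3 at −0.43, Ccl12 at −5.50 and Cxcl17 at −0.092. In limma with voom, Ccl12 was at −1.10, Ccl8 at −2.41, Cx3cl1 at 0.10 and Cx3cr1 at −0.18. With the replicate block, Ccl24 was at 0.15, Ccl8 at −0.15 and Cxcl17 at −0.88, and the block changed no call. Cxcl17, at 0.0035 in the main test, was at −0.071 in DESeq2 with and without its Cook filter and with its size factors, at −0.0030 with filterByExpr and at −0.0045 with upper-quartile scaling, and Cxcl5 was at 0.14 with total count scaling. The cause of these changes was not tested.

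Library totals differed little, whereas the biological coefficient of variation in edgeR, the spread of a gene between libraries relative to its mean, was 1.59. A count of 0 in amplified RNA of few cells does not show that the gene was not transcribed. Same-numbered libraries are different pools, and their deviations correlated at −0.02 to 0.15. The replicate block rests on no stated pairing, and whether same-numbered libraries shared a cohort was not tested. Members without SCVS libraries 3, 4 or 5 that no longer passed the filter, such as Ccl6, gave no value there, and 11 of the 22 members, Ccl6, Ccr1 and Cxcr4 among them, gave none with filterByExpr.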

Other observations

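Chemokine genes without a chemokine symbol were also present. Ppbp and Pf4, chemokines of platelets, had 73.5 ± 112 and 16.9 ± 25.5 CPM in naive and 147 ± 126 and 80.6 ± 41.2 CPM in SCVS LECs (SD, n = 5 each). Their log2 fold changes were 0.98 (standard error 1.38) and 2.26 (standard error 1.42), and neither passed the threshold (adjusted p = 1.0 in edgeR). The sum of 6 platelet markers lay between 0 and 90.5 CPM in naive and between 20.5 and 257 CPM in SCVS libraries, and its part in these values was not tested. Ccrl2, a receptor-like protein that presents the attractant chemerin, had 122 ± 81.2 and 94.7 ± 83.2 CPM (SD, n = 5 each), with a log2 fold change of −0.44 (standard error 1.14).

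Among the genes of heparan sulphate, which holds chemokines on vessel walls, the core protein Sdc3 had the largest log2 fold change of the 12 tested, 2.65 with a standard error of 1.16. It had 12.5 ± 13.4 CPM in naive and 83.4 ± 80.1 CPM in SCVS LECs (SD, n = 5 each) and did not pass the threshold (adjusted p = 1.0 in edgeR).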
